A study of Mus musculus with 16 samples.

Results

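The genome-wide distribution of RNA polymerase II (Pol2) was described in LPS-activated mouse splenic B cells from 4 of the 16 chromatin immunoprecipitation sequencing (ChIP-seq) libraries of the series. They were the library titled B4 Pol2 wt, its counterpart B4 IgG wt, made with a non-specific antibody, and the other 2 IgG libraries of the same cell state, B4 IgG replicates 1 and 2, which served as a check. All 4 were chosen by their titles. The cells were B cells from spleen, quiescent at the start, which then received lipopolysaccharide (LPS), a component of bacterial walls that activates B cells, at 25 µg/ml for 4 h. The Pol2 antibody was Abcam ab5408. The mark wt stands in the titles of the Pol2 library and of 1 IgG library only, the labels do not explain it, and they give neither strain, age nor genotype for any of the 4. It may mean wild type, and IgG replicates 1 and 2 may then come from cells of another genotype, since Myc was precipitated in this series with antibodies to EGFP. With 1 Pol2 library in this state and none from untreated B cells, no replicate spread of Pol2 could be given and no change on LPS could be measured.

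Pol2 transcribes all protein-coding genes. It is typically densest just after the transcription start, where it pauses, and thinner along the gene body behind the elongating enzyme, so a ChIP-seq profile shows sharp peaks at promoters with a one-sided tail over transcribed genes. Resting B cells are small and transcribe little, and LPS, acting through Toll-like receptor 4, drives them to enlarge and to raise their RNA output before they divide.

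Reads were counted in bins of 500 bp on chromosomes 1 to 19 of the mm8 build and expressed as reads per 1000000 reads on these chromosomes (RPM). B4 Pol2 wt kept 2377368 reads and B4 IgG wt 1278471, a mean of 0.483 and 0.260 reads per bin. IgG replicates 1 and 2 kept 3367741 and 5119994 reads. The IgG libraries did not resemble each other fully. Reads on the X chromosome came to 36.9% of those on chromosome 3 in B4 Pol2 wt and 36.8% in B4 IgG wt, against 66.4% and 65.95% in IgG replicates 1 and 2. Reads on chromosome 11 came to 89.6% of those on chromosome 1 in B4 IgG wt, 72.3% in IgG replicate 1 and 66.9% in replicate 2, and to 116% in B4 Pol2 wt. Folds over IgG are ratios of RPM, and their size depended on the control. They also depend on the scaling. By total reads, counts of B4 IgG wt and IgG replicates 1 and 2 were multiplied by 1.86, 0.706 and 0.464. At the median ratio of 10 kb bins with few Pol2 reads these factors were 1, 0.294 and 0.1765, which would make every fold larger. No gene is named, because the gene table used here is of another build than the reads, and for the same reason the labelled cell type was not checked against marker genes.

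Pol2 was found in 16452 separate domains that covered 12.1 Mb. A domain is a run of directly neighbouring bins in which Pol2 reads were at least 4-fold above the local IgG rate and passed a one-sided Poisson test at a Benjamini-Hochberg value of 0.01. Of 4924849 bins tested, 24222 were called, or 0.492%, and a called bin held at least 6 and a median of 15 Pol2 reads. The test compares these 2 libraries and not conditions. Just inside the 4-fold limit, the 5 nearest bins were all at 4.03-fold, and the 5 just outside were at 3.98 to 3.99-fold, with 1275 bins passing the Poisson test below the limit.

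With Pol2 and IgG exchanged, 421 bins (0.00855%) in 419 domains were called. IgG replicates 1 and 2 called against B4 IgG wt gave 785 and 79 domains (0.0163 and 0.00187% of bins). B4 IgG wt called against replicates 1 and 2 gave 549 and 889 (0.0113 and 0.0181%). The Pol2 library gave 19542 domains over IgG replicate 1 (0.634% of bins) and 22564 over IgG replicate 2 (0.752%), more than over its own counterpart, and 20235 over the sum of the 3 (0.67%). Of the 16452 domains, 13392 (81.4%) were called over each of the 3 IgG libraries. These held a median of 23 Pol2 reads, and the other 3060 held a median of 8. Among the 1645 domains with most reads, 1642 were called over each.

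Domains held 19.7% of all Pol2 reads (95% Clopper-Pearson interval 19.6 to 19.7%), in 0.492% of the bins. The same bins held 1.31% of the reads of B4 IgG wt, 1.31% of IgG replicate 1 and 1.21% of IgG replicate 2. All 3 IgG libraries were thus themselves above an even spread there, by 2.66, 2.66 and 2.47-fold. Pol2 exceeded IgG in domains by 15.04-fold over B4 IgG wt (14.8 to 15.3), 15.04-fold over replicate 1 (14.9 to 15.2) and 16.2-fold over replicate 2 (16.1 to 16.3). IgG replicates 1 and 2 had no part in choosing the domains, but the Pol2 reads had. To separate choice from measurement within B4 Pol2 wt and B4 IgG wt, domains were also called on the reads of 1 strand and measured on the other. The 10710 domains called on the plus strand held 14.7% of Pol2 reads of the minus strand and 1.235% of those of B4 IgG wt, a ratio of 11.9 (11.6 to 12.1). IgG replicates 1 and 2 had 0.835% and 0.813% of their minus-strand reads there, and Pol2 was 17.55-fold and 18.02-fold above them. In the reverse direction 10669 domains held 14.7% and 1.233%. Of the domains called on the plus strand, 99.7% had at least 1 Pol2 read on the minus strand. This is a low bar, since their 14748 bins held 174275 minus-strand Pol2 reads. Intervals cover counting error only.

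Most domains as called were narrow. A single bin of 0.5 kb made up 11274 domains (68.5%), 3646 spanned 1 kb, 1325 spanned 1.5 to 2 kb and 207 (1.26%) spanned 2.5 kb or more. The median width was 0.5 kb, the 99th percentile 2.5 kb and the widest domain 10.5 kb, and only 19 domains reached 5 kb. That median is the width of 1 bin, and it was 0.25 kb with bins of 250 bp and 1 kb with bins of 1000 bp. The 207 widest held 8.81% of the domain reads, and the single bins 38.1%. Density rose with width, from 13.3 RPM per kb in single-bin domains to 17.3 in domains of 1 kb, 19.3 in those of 1.5 to 2 kb and 25.6 in the widest class. IgG replicate 2 did not follow, at 1.002, 1.03, 0.978 and 0.953 RPM per kb, and IgG replicate 1 had 1.05, 1.12, 1.04 and 1.23. B4 IgG wt rose from 0.874 to 1.36 RPM per kb over the same classes. Over IgG replicate 1, Pol2 enrichment went from 12.6-fold (12.4 to 12.8) in single bins to 20.8-fold (20 to 21.6) in the widest class. Over IgG replicate 2 it went from 13.3-fold (13.1 to 13.4) to 26.9-fold (25.9 to 27.8), and over B4 IgG wt from 15.2-fold (14.8 to 15.6) to 18.9-fold (17.8 to 20.02). Width was set by the call that also used these Pol2 reads, so the relation is a description. In the 207 domains of 2.5 kb or more, the highest bin held a median of 29.0% of the reads.

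**Figure D1:**
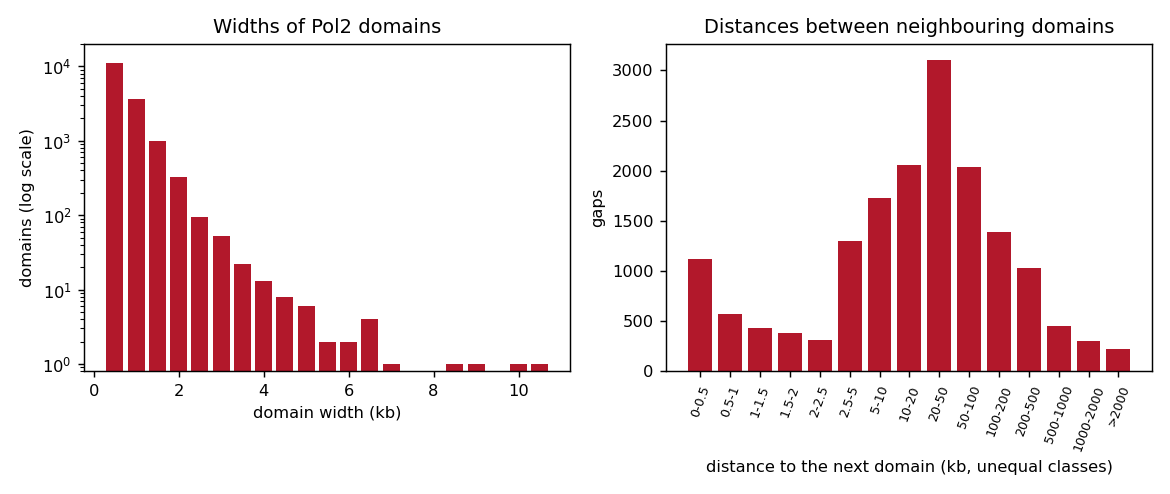
Left, number of Pol2 domains (log scale) by width in kb. Right, number of gaps by distance to the next domain on the chromosome, in kb and in classes of unequal size. Widths fall steeply from 11274 domains of 0.5 kb to 1 domain of 10.5 kb, and the fullest distance class is 20 to 50 kb.

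The same sites were seen in the only other Pol2 library of the series, from B cells given LPS together with 10058-F4 for 4 h, a small molecule that disrupts pairing of Myc with Max and whose dose the labels do not give. That library was deeper, with 5130471 reads, and called over its own 2 IgG libraries it gave 32153 domains (1.23% of bins). They overlapped 13871 of the 16452 domains (84.3%), and these overlaps involved 40.5% of the domains of the deeper library. Of the 1645 domains with most reads, 1643 overlapped, and 206 of the 207 widest did, against 78.0% of single-bin domains. The 2581 domains that did not overlap held a median of 8 reads.

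The strongest domain by reads, chr7:44703501-44712500, spanned 9 kb and held 1262 Pol2 reads, or 531 RPM. B4 IgG wt had 13.3 RPM there, IgG replicate 1 had 10.99 and replicate 2 had 10.94. Pol2 was thus 39.9-fold above B4 IgG wt, with a counting interval of 24.8 to 68.75. Next was chr13:43795501-43804000, with 968 reads (407 RPM), and its neighbour chr13:43804501-43815000, separated by a single uncalled bin, was the widest domain of all with 633 reads (266 RPM) over 10.5 kb. Where domains up to 1 kb apart were joined, this pair became part of a stretch of 24.5 kb, chr13:43795501-43820000, with 1921 Pol2 reads (808 RPM). The IgG libraries had 23.5, 28.5 and 26.4 RPM in that stretch. It was the widest of the 14760 joined stretches, of which 20 reached 10 kb.

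Of the remaining domains among the 10 with most reads, chr11:98958001-98968000 held 745 reads (313 RPM) spread over 10 kb, with 7.25% of them in the highest bin. A single domain of 5 kb, chr10:80331501-80336500, held 627 reads (264 RPM) and lay in the megabase with most domains of all. At chr8:87865501-87870500 there were 570 reads (240 RPM), at chr15:61813001-61818000 there were 548 (230 RPM) and at chr12:56404501-56411500 there were 539 (227 RPM). The last 2 of the list were chr2:127024501-127031000 with 530 reads (223 RPM) and chr17:70753501-70759000 with 501 (211 RPM). In all 10, Pol2 lay above each of the 3 IgG libraries, by 17.8 to 72.5-fold over B4 IgG wt, 5.24 to 80.8-fold over replicate 1 and 23.9 to 51.9-fold over replicate 2. Being above B4 IgG wt was set by the call, and the 10 were ranked by these same Pol2 reads, so the folds are descriptions. The value of 5.24 was that of the chromosome 15 domain, where IgG replicate 1 had 44.0 RPM against 7.82 in B4 IgG wt and 4.69 in replicate 2.

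**Figure D2:**
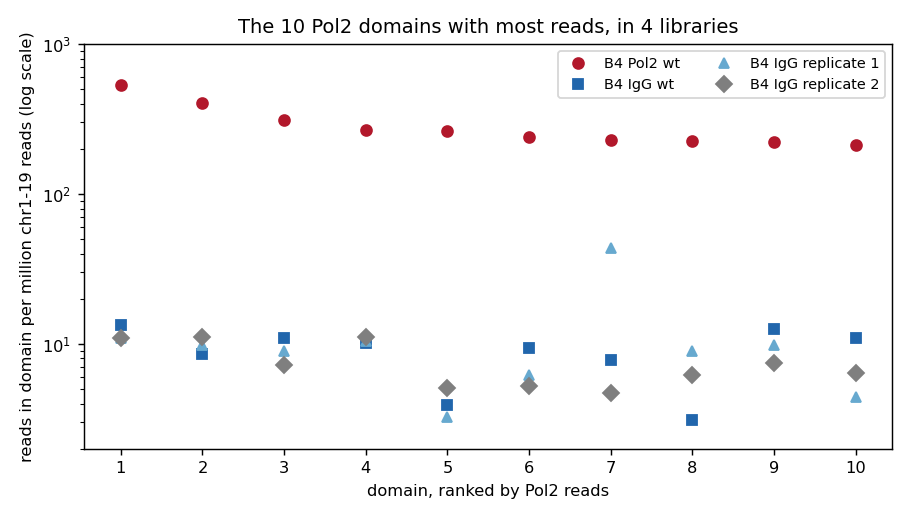
RPM (log scale) of the 10 Pol2 domains with most reads, ranked from left to right, in the Pol2 library and the 3 IgG libraries of LPS-treated B cells, 1 point per library. Pol2 lies at 211 to 531 RPM in every domain, and the IgG points lie far below it, with IgG replicate 1 raised to 44.0 RPM in the domain ranked 7. The domains were called against B4 IgG wt and ranked by these same Pol2 reads.

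Domains with the highest single bin were partly other ones. The bin with most reads in a domain, chr13:43796001-43796500, held 209 reads, and 6 of the 10 domains with the highest bins were also among the 10 with most reads. The other 4 spanned 1 to 3.5 kb. At chr10:127950001-127951000, 120 of 148 reads (81.1%) fell in 1 bin, against 2, 9 and 6 reads in the whole domain in B4 IgG wt and IgG replicates 1 and 2. At chr9:7764001-7765500 the highest bin held 129 of 234 reads, at chr3:95743501-95745000 it held 125 of 234, and at chr16:84585001-84588500 it held 121 of 302. Among the 10 widest domains, the 4 not yet named were chr12:81028001-81034500 (481 reads over 6.5 kb), chr8:129476001-129482500 (335 over 6.5 kb), chr16:84595501-84602000 (298 over 6.5 kb) and chr9:44259501-44265500 (417 over 6 kb). These wide domains spread their reads: their highest bins held 11.9 to 17.5% of them. Against the library with 10058-F4, levels differed from domain to domain. Over all 16452 domains, the ratio of RPM without to with the compound was 0.780 (0.777 to 0.782). In the 207 domains of 2.5 kb or more it was 0.926 (0.915 to 0.936). Single domains are to be read against these values and not against equal levels. The chromosome 11 domain had 313 RPM without the compound and 506 with it, and the strongest chromosome 7 domain had 531 and 223. Among the 18 named domains the ratio without to with the compound ran from 0.399 (0.354 to 0.449) at chr8:129476001-129482500 to 3.44 (2.85 to 4.15) at chr16:84595501-84602000, with 1 library on either side and counting error only.

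Reads were concentrated in few places, but no small set of domains held most of them. The 10 strongest domains held 1.48% of the domain reads. The top 1% (165 domains, at least 146 reads each) held 8.49%, the top 10% (1645 domains, at least 59 reads each) held 34.4%, and 3121 domains (18.97%) were needed for 50%. At the lower end 3276 domains had under 10 reads. The top 1% was 19.6-fold above B4 IgG wt (18.5 to 20.9) and the top 50% was 14.1-fold above it (13.8 to 14.3). Over IgG replicate 1 these folds were 25.7 (24.6 to 26.8) and 17.9 (17.7 to 18.1), and over replicate 2 they were 31.15 (29.96 to 32.4) and 18.9 (18.7 to 19.1). Domains were ranked by the Pol2 reads that also enter the folds, so the rise with rank is a description. Over all bins, with each library thinned to 1278471 reads, the highest 0.1% of bins held 8.83% of Pol2 reads, against 2.43% in B4 IgG wt, 1.89% in IgG replicate 1 and 1.68% in replicate 2. The highest 1% held 30.3% of Pol2 reads, against 14.6, 12.1 and 10.2%. Without thinning these were 29.2, 14.6, 8.49 and 5.95%. Once thinned, the libraries had 78.4 to 84.7% of bins empty, so counting alone puts more than 1% of reads in the highest 1% of bins. The share that evenly spread reads would give was not computed. Of the 4925 highest Pol2 bins at full depth, 94.2% lay in domains.

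**Figure D3:**
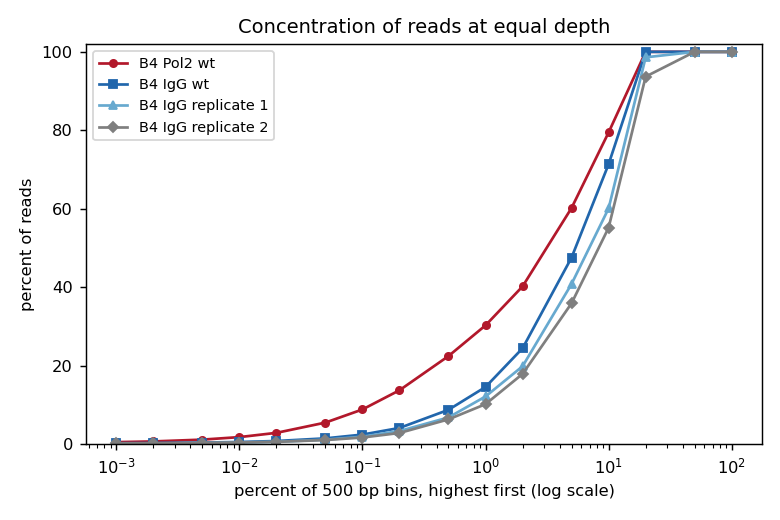
Cumulative percent of reads against percent of 500 bp bins, taken from the highest bin down (log scale), for the Pol2 library and 3 IgG libraries thinned to 1278471 reads each. The Pol2 curve lies above the others, with 30.3% of reads in 1% of bins against 14.6% in B4 IgG wt and 10.2% in IgG replicate 2.

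Neighbouring domains lay a median of 22 kb apart (21.5 to 23), with a mean of 144 kb. Gaps varied widely, and 25.0% of the 16433 gaps were at most 5 kb, 35.6% at most 10 kb and 20.7% at least 100 kb. Gaps of a single bin (0.5 kb) numbered 1121. Counted in classes of unequal size, the fullest was 20 to 50 kb with 3108 gaps, but this class is far wider than those of short gaps. The 1645 domains with most reads were a median of 324 kb apart (274 to 385.5). The median depended on the call, and ranged from 14 kb over IgG replicate 2 to 38 kb with 50% of the Pol2 reads.

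Linking domains at most 10 kb apart left 7767 domains (47.2%) on their own and placed 8685 in 2842 chains with a median span of 7.5 kb. Chains of 5 or more numbered 364 and held 20.8% of the domain reads in 16.6% of the domains. Lone domains held a median of 19 reads, and linked ones 17. The chain with most domains, chr3:135521501-135612500, had 38 domains in 91 kb, with 28.6% of its length called. It held 1181 Pol2 reads, against 85 in B4 IgG wt, 281 in IgG replicate 1 and 306 in replicate 2. The chain chr2:3630501-3717500 had 31 domains in 87 kb, and chr7:110012501-110080500 had 28 in 68 kb. Pol2 over the whole of these 3 chains, called or not, was 7.33 to 8.52-fold above B4 IgG wt, 5.78 to 10.5-fold above replicate 1 and 7.29 to 14.8-fold above replicate 2.

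Pol2 reads were found near other Pol2 reads more than an even spread gives, at every distance measured, up to 100 kb. The mean product of counts in 2 bins, set against that of evenly spread reads, was 12.4 at a distance of 0.5 kb, 3.69 at 5 kb, 2.66 at 10 kb, 2.01 at 50 kb and 1.83 at 100 kb. B4 IgG wt showed a weaker form of the same pattern, at 2.63, 1.615, 1.46, 1.38 and 1.34. IgG replicate 2 was flatter, at 1.46, 1.16, 1.12, 1.09 and 1.07.

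Pol2 reads beside strong summits were uneven between the sides. The 1000 domains with most reads were taken, the side with more reads at 1 to 10 kb was chosen in the 10058-F4 library, and the reads on both sides were then counted in B4 Pol2 wt. A side could be chosen for 996 summits, and 531 of the chosen sides lay at higher coordinates. B4 Pol2 wt had more reads on the chosen side at 835 summits (83.8%) and fewer at 148. Summed, there were 94675 reads on the chosen side and 42324 on the other, a ratio of 2.24 (2.21 to 2.26). The IgG libraries were also uneven, but less so, with ratios of 1.27 (1.23 to 1.30) in B4 IgG wt, 1.18 (1.16 to 1.20) in replicate 1 and 1.19 (1.17 to 1.21) in replicate 2. Pol2 stood 4.93-fold above B4 IgG wt on the chosen side (4.83 to 5.03) and 2.79-fold on the other (2.73 to 2.86). Over IgG replicates 1 and 2 the folds were 5.81 and 7.81 on the chosen side and 3.06 and 4.165 on the other. The counts include other domains and the outer parts of wide ones. Of all domains, 52.8% had another within 10 kb. In 83 of the 207 domains of 2.5 kb or more, the summit lay in the outer 20% on either side. A tail could therefore not be told apart from neighbouring domains or an off-centre summit.

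The mean profile fell from 21.6 RPM per bin at the summit to 2.55 at 2.5 kb on the chosen side and 1.31 on the other. At 5 kb it was 2.15 and 0.938, and at 10 kb 1.78 and 0.807. B4 IgG wt had 1.31 RPM per bin at the summit itself and 0.422 and 0.344 at 10 kb on the 2 sides. A peak at the summit was present in IgG replicate 1 (0.630 RPM per bin) and replicate 2 (0.700) as well.

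Away from domains Pol2 fell gradually. Per Mb of bins that had a read in at least 1 of the 3 IgG libraries (read bins, 72.1% of all), Pol2 was at 16865 RPM in domains, 2636 within 1 kb of one, 1203 at 1 to 2 kb, 814 at 5 to 10 kb, 449 at 50 to 100 kb and 230 beyond 500 kb. In domains, B4 IgG wt had 1122 RPM, and IgG replicates 1 and 2 had 1121 and 1041. Outside them B4 IgG wt fell as well, from 1179 RPM within 1 kb to 781 at 5 to 10 kb, 668 at 50 to 100 kb and 328 beyond 500 kb. IgG replicate 1 went from 877 to 656, 577.5 and 481. Per Mb of read bins, IgG replicate 2 was nearly level, at 610, 552, 573 and 545. Its reads, the most of the 3, also decide which bins count as read, so this can partly follow from the measure. The share of read bins fell from 90.4% within 1 kb to 61.65% beyond 500 kb. The ratio of Pol2 to B4 IgG wt did not fall all the way: it was 0.602 at 100 to 200 kb, 0.5855 at 200 to 500 kb and 0.700 beyond 500 kb (0.696 to 0.704). Over IgG replicates 1 and 2 it was lowest beyond 500 kb, at 0.478 and 0.421. At 5 to 10 kb, scaled by total reads, Pol2 was 1.04-fold above B4 IgG wt (1.03 to 1.05) and 1.48-fold above IgG replicate 2 (1.47 to 1.49). Scaled by 10 kb bins with few Pol2 reads, all these ratios would be larger. The part of this decline of B4 IgG wt in the ratios over it was not tested.

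**Figure D4:**
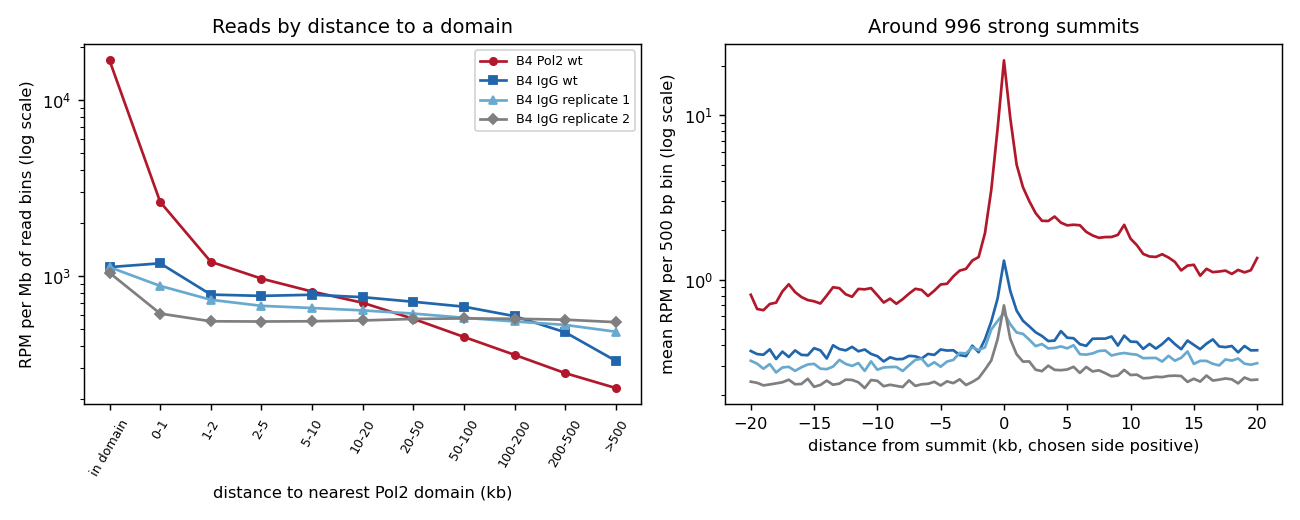
Left, RPM per Mb of read bins (log scale) by distance to the nearest Pol2 domain in kb, for the Pol2 library and 3 IgG libraries. Right, mean RPM per 500 bp bin (log scale) around 996 strong summits, with the side chosen in the 10058-F4 library as positive. Outside domains, Pol2 and B4 IgG wt both fall with distance. IgG replicate 2 stays between 545 and 573 RPM per Mb of read bins beyond 1 kb, and its own reads help to define these bins. The Pol2 profile is higher on the chosen side.

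Domain density differed 2.55-fold between chromosomes. Per Mb of read bins, the mean was 9.27 domains. Chromosome 11 had the highest density, with 1544 domains or 16.4 per Mb (95% Poisson interval 15.6 to 17.2), followed by chromosome 19 with 14.3 (13.2 to 15.4) and chromosome 17 with 13.1 (12.3 to 14.0). The fewest were on chromosome 14, at 6.42 (5.89 to 6.99), chromosome 18, at 6.44 (5.85 to 7.08), and chromosome 1, at 6.48 (6.08 to 6.92). These 3 did not differ beyond their intervals, and of 18 neighbouring pairs in the order 16 had overlapping intervals. Chromosomes 11, 19 and 17 led in this order over each IgG library and over their sum. The lowest place went to chromosome 18 over each of the other 3 controls. Chromosome 11 also held 194 of the 1645 domains with most reads, or 2.06 per Mb of read bins, against 0.583 on chromosome 14 and 0.497 on chromosome 18. Its domains held 26.2% of its Pol2 reads, and on chromosome 18 they held 15.1%, whereas the median reads per domain varied only from 16 to 20 across chromosomes.

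Total IgG reads per Mb of read bins varied between chromosomes by 1.48-fold in B4 IgG wt, 1.16-fold in replicate 1 and 1.04-fold in replicate 2. Read bins are defined by these same IgG reads, most of all those of replicate 2, so its small spread can partly follow from the measure. The share of read bins ran from 66.5% to 77.4% between chromosomes. The correlations with IgG reads use the same measure. Over the 19 chromosomes, domain density correlated with B4 IgG wt reads per Mb at a Pearson r of 0.909 (Spearman 0.882), with replicate 1 at 0.744 (0.667) and with replicate 2 at 0.416 (0.330). The density called in the 10058-F4 Pol2 library correlated with it at 0.983 (0.933). These are descriptions over chromosomes, which share a library and its depth.

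**Figure D5:**
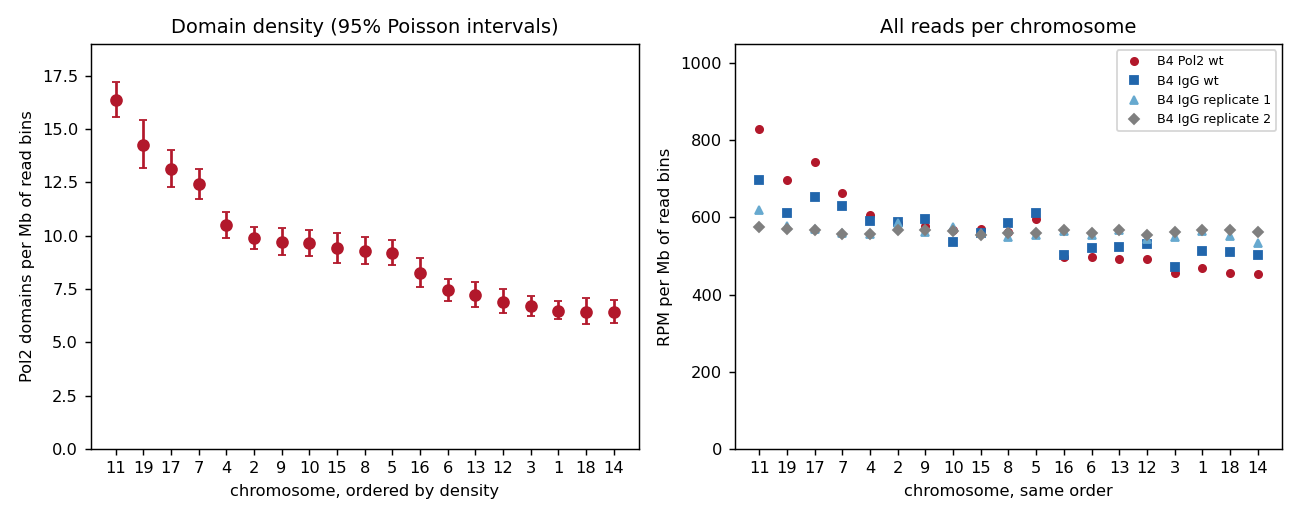
Left, Pol2 domains per Mb of read bins for chromosomes 1 to 19, ordered by density, with 95% Poisson intervals. Right, all reads in RPM per Mb of read bins in the same order, 1 point per library. Density falls from 16.4 on chromosome 11 to 6.42 on chromosome 14, and B4 IgG wt reads lean the same way. IgG replicate 2 stays nearly level per Mb of read bins, which its own reads help to define.

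Within chromosomes domains were gathered in few megabases. Of the 2310 windows of 1 Mb with at least 50% read bins, 665 (28.8%) had no domain, the median was 3 and 236 (10.2%) had 20 or more. The 286 fullest windows (12.4%) held 50% of the domains. The fullest was chr10:80000001-81000000, with 89 domains and 7596 Pol2 reads, and the window before it, chr10:79000001-80000000, had 73. Next came chr17:33000001-34000000 with 66, chr9:44000001-45000000 with 64 and chr8:73000001-74000000 with 60. Over these 5 windows as wholes, Pol2 was 2.13 to 2.96-fold above B4 IgG wt, 3.30 to 4.61-fold above replicate 1 and 4.05 to 6.56-fold above replicate 2. In windows with 20 or more domains Pol2 had 1431 RPM per Mb of read bins, against 229 in windows without one. B4 IgG wt had 911 and 336, IgG replicate 1 had 668 and 487, and IgG replicate 2 had 564 and 548.

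Long stretches carried no domain. Stretches of at least 500 kb between neighbouring domains numbered 976 and covered 63.0% of the span of chromosomes 1 to 19 and 61.1% of the read bins. Of these, 526 reached 1 Mb and 224 reached 2 Mb. They took up 43.95% of chromosome 11 and 46.6% of chromosome 19, against 69.1% of chromosome 3 and 68.5% of chromosome 6. Together they held 31.05% of Pol2 reads, 47.1% of B4 IgG wt reads, 55.9% of IgG replicate 1 and 60.4% of replicate 2. Scaled by total reads, Pol2 was 0.659 of B4 IgG wt there (0.656 to 0.661), 0.555 of replicate 1 (0.554 to 0.557) and 0.514 of replicate 2 (0.512 to 0.515). On this scale it lay below each of the 3 in 928 of the 976 stretches. The direction turned with the scaling. When the IgG libraries were set equal to Pol2 at the median ratio of 10 kb bins with few Pol2 reads, Pol2 came to 1.225, 1.33 and 1.35 times B4 IgG wt and replicates 1 and 2 in the stretches, and lay below each of the 3 in 0 of the 976. For B4 IgG wt this factor was 1, against 1.86 by total reads, and it rests on bins with a median of 4 Pol2 and 3 IgG reads. The bins had to hold reads of both libraries and at most the median Pol2 count. Chosen for few Pol2 reads, they can lie in the same stretches. The turn therefore shows that the direction depends on the scale, not that Pol2 was above IgG there. Beyond 500 kb from a domain the ratios scaled by these bins were 1.30, 1.15 and 1.11.

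The longest in read bins was chr15:12770001-25213500, at 12.4 Mb with 8448 kb of read bins. It had 4308 Pol2 reads and no bin with more than 5. That limit largely follows from the call, since the fewest reads in a called bin were 6. Pol2 came to 214.5 RPM per Mb of read bins in it, against 271.9 in B4 IgG wt, 443.8 in IgG replicate 1 and 532.5 in replicate 2. Next were chr1:109275501-120138500 (10.9 Mb, 3281 Pol2 reads), chr5:9168001-20193000 (11.03 Mb, 3661 reads), chr14:104145001-113922000 (9.78 Mb, 3627 reads) and chr6:73178501-82606000 (9.43 Mb, 3375 reads). In these 5, scaled by total reads, Pol2 was 0.682 to 0.789 of B4 IgG wt and 0.384 to 0.413 of IgG replicate 2. The stretches on chromosomes 15 and 1 had 0 domains over each of the other controls, and the other 3 had at most 2. In the deeper 10058-F4 Pol2 library these 5 stretches held 1 to 5 called domains each, and 716 of the 976 held at least 1. Free of a domain means only free of one called in B4 Pol2 wt, at 2377368 reads and over B4 IgG wt. The 10058-F4 library also differed in treatment and in its IgG libraries. Whether its depth accounts for its domains in these stretches was not tested.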

How the data were processed

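Each deposited file lists the aligned reads of 1 library with their position, length and strand, so the deposited values are read positions, and all counts were computed here. CASAVA 1.0, Bowtie 0.12.7 and the build mm8 are named per the submitters' processing notes, and the settings are not given in the sources used here. Because nothing states if positions start at 0 or 1, coordinates may be off by 1 base. Reads were 45 bases long, except 24 to 30 in B4 IgG replicate 1.

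Of reads sharing a 5′ end and strand 1 was kept, which removed 0.0808% in B4 IgG replicate 1 and none in the other 3. Reads were moved toward the fragment centre by 50% of the strand offset (166 bases in Pol2, 169, 125 and 152 in B4 IgG wt and replicates 1 and 2). Each bin was tested against the highest of 4 expected rates, namely the mean of all bins and the IgG rates in the bin itself, in 5 kb and in 10 kb around it, scaled by reads on chromosomes 1 to 19. Python 3.11.15, numpy 2.4.6 and scipy 1.17.1 were used, and the call was tested on simulated data. Medians have order-statistic 95% intervals, shares Clopper-Pearson and ratios of reads exact binomial ones. Named regions were the 10 domains with most reads, the 10 with the highest bin, the 10 widest, the 5 fullest windows, the 5 free stretches longest in read bins and the 3 chromosomes at each end. The chains named were chosen after their values were seen. The libraries, regions and lists were chosen with earlier results of these data known. No sequence is printed, because no genome of the build mm8 was used here.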

Additional observations from a re-analysis of the deposited data

How the results depend on the processing

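Calls under 14 other settings and 2 more chosen after seeing the data (IgG replicates 1 and 2 thinned to the depth of B4 IgG wt) gave 10778 to 22564 domains and 924 to 1003 domain-free stretches of at least 500 kb. Domains held 23.75% of Pol2 reads over IgG replicate 1 with a median spacing of 18 kb, and 25.66% and 14 kb over replicate 2, where the ratio of chromosome 11 to 14 was 2.851. Over the sum of the 3 they held 24.57% at 16.5 kb. Thinned, replicate 1 gave 23.31% and 18.5 kb, and replicate 2 gave 24.46%, 15 kb and a ratio of 2.86. With IgG scaled by background bins the values were 24.66% and 15 kb, and with the genome mean and 10 kb rate only 25.35% and 16.5 kb. A limit of 2-fold gave 21.16%, one of 8-fold 13.82% and 32 kb, and a Benjamini-Hochberg value of 0.0001 gave 16.88% and 32.5 kb. Bins of 250 bp gave 17.39%, a median width of 0.25 kb and a spacing of 16.75 kb, and bins of 1000 bp gave 20.86%, 1 kb and 28 kb, so the median width is that of 1 bin. Merging across 1 kb gave 20.32% and 28.5 kb, and across 3 kb 21.21% and 35 kb. Without the shift of reads there were 19.23% and 24 kb. With 50% of the Pol2 reads there were 10778 domains, 16.05% and 38 kb, so the number of domains was limited by depth. Keeping all reads was no separate setting, since none were removed from B4 Pol2 wt or B4 IgG wt. Stretches of at least 1 Mb numbered 526. With IgG scaled by background bins, a comparison added after seeing the data, Pol2 over B4 IgG wt and IgG replicates 1 and 2 in domain-free stretches turned from 0.659, 0.555 and 0.514 to 1.225, 1.333 and 1.352. The bins that set this scale were themselves chosen for few Pol2 reads. The share of reads in the highest 1% of bins was 27.11% with bins of 1000 bp and 29.69% without the shift. Beside strong summits, the ratio of the chosen side to the other was 2.184 at 2 to 20 kb. No paired analysis was possible because Pol2 and B4 IgG wt had 1 library each.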

Other observations

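IgG replicate 1 stood apart in the stretch chr15:61813001-61822500, which holds 2 Pol2 domains. It had 298 reads there (88.5 RPM), against 17 in B4 IgG wt (13.3 RPM) and 29 in IgG replicate 2 (5.66 RPM), or 22.9, 3.45 and 1.47 times each library's own mean per bin. The 10 kb before and after it had 33 and 21 reads in IgG replicate 1 and 28 and 34 in IgG replicate 2. Within the stretch, 5 of the 19 bins had 10 or more reads in IgG replicate 1. Over IgG replicate 1 Pol2 was 3.34-fold enriched in the stretch (2.91 to 3.83), and over replicate 2 it was 52.1-fold (36.0 to 78.4).

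Outside domains there were 30 bins with at least 50 Pol2 reads, which held 0.374% of all Pol2 reads. B4 IgG wt was at least 4 times its own mean per bin in all 30, and IgG replicates 1 and 2 in 28 each. The highest of the 30 had 917 Pol2 reads, with 237 in B4 IgG wt, 196 in IgG replicate 1 and 327 in IgG replicate 2. With 1 read per 5′ end and strand, the count of a 500 bp bin has an upper limit, so the very highest bins may be understated.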
